A study of Mus musculus with 12 samples.

Results

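The genes described here encode the proteasome: its subunits, the factors that assemble it, its activators and its inhibitor. They are the 47 genes, of 18193 measured, whose official symbol begins with Psma, Psmb, Psmc, Psmd, Psme, Psmf or Psmg followed by a number. The rule uses symbols and no measured value, although it was set with earlier results of these data known, and each gene was read from its brightest probe set over all 12 arrays. By role, they comprise 7 subunits of the alpha ring of the core, 4 structural and 3 catalytic subunits of its beta ring, and the 3 catalytic subunits of the immunoproteasome. They further comprise 17 subunits of the 19S regulatory particle, 7 assembly factors, 3 activators, 1 inhibitor, the germ-line subunit Psma8 and the thymic subunit Psmb11. Psme2, the partner of Psme1, was measured only by a probe set that carries several gene symbols, so it is not among the 47.

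The values come from B cells of 6-week-old C57Bl/6 mice, either homozygous for the L allele of Ikzf1 (IkL/L; the series title calls these cells Ikaros-deficient) or wild type (WT). Follicular B cells, the B cells that circulate between follicles, were sorted as B220+CD23hiCD21lo at over 98% purity. Unstimulated cells spent 3 h in culture with nothing added. Stimulated cells received goat F(ab')2 fragments against mouse IgM at 10 µg/ml, a ligand that engages the B cell receptor, for 3 h or 12 h. Each of the 6 groups held 2 arrays, from what the design text calls 2 independent experiments. The sources used here do not say whether several mice were pooled for an array. With 2 arrays a group, p-values measure only the spread between these arrays. Stimulation for 12 h also means 9 h more in culture than the unstimulated cells had, and the effects of time and of stimulation cannot be told apart. In sorted cells measured in bulk, a change in the mix of cells and a change in RNA per cell cannot be told apart either.

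The proteasome destroys proteins that carry a ubiquitin chain. Its barrel, the 20S core, is made of alpha and beta rings, and 3 beta subunits cut the peptide chain: Psmb5, Psmb6 and Psmb7. The 19S particle caps the barrel, where ATPases (Psmc) unfold the substrate and non-ATPase subunits (Psmd) bind and trim ubiquitin. In lymphocytes and in cells exposed to interferon gamma, the catalytic subunits Psmb8, Psmb9 and Psmb10 can take the places of Psmb5, Psmb6 and Psmb7, giving the immunoproteasome, known for the peptides it supplies to MHC class I. Chaperones named Psmg and Pomp build the core, and Psmd5, Psmd9 and Psmd10 build the base of the cap.

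All values are log2 signals from the authors' RMA summary, and a difference of 1 on this scale is a doubling of signal. Array medians over all probe sets lay between 3.12 and 3.21, and replicate arrays correlated across genes with r from 0.990 to 0.994. A floor was set at 4.21, which is 1 above the highest array median. A mean over it was reached by 7805 genes, or 42.9% of those tested. Of the proteasome genes, 45 of 47 were over it on all 12 arrays, and Psma8 and Psmb11 were under it on all 12. Ikzf1, the gene that carries the alleles, did not differ past the threshold between IkL/L and WT cells (log2 0.13 unstimulated, adjusted p = 0.937 in limma; -0.68 at 3 h, adjusted p = 0.193; -0.88 at 12 h, adjusted p = 0.148). The sources used here do not say where its probe set lies relative to the alteration, so this checks nothing about the genotype. The median of 5 B cell markers lay between 7.89 and 10.58. All measured markers of T cells (4) and NK cells (3) were under the floor on all arrays, as were the myeloid markers Itgam, Csf1r and Cd14. Lyz2, another myeloid marker, was under it on 10 of 12 arrays and reached 4.51. Of 2 measured erythroid markers, Hba-a1 was under it on all 12 arrays. The other, Alas2, was under it on 8 and reached 5.07, with replicate 1 above replicate 2 in every group. The myeloid marker S100a8 was under the floor on 3 of 12 arrays and reached 7.26, with replicate 2 above replicate 1 in every group, and Adgre1 was under it on 8, with 5.16 and 5.94 in IkL/L cells and 4.80 and 5.03 in WT cells at 12 h. Of the plasma cell markers, Jchain lay between 3.58 and 8.68 and Xbp1 between 8.29 and 9.89, while Sdc1 and Prdm1 were under the floor on 9 and 10 arrays. The part of these markers in the proteasome values was not tested. In WT cells, genes of the interferon response stood apart between the replicates: the median of 10 such genes was 7.89 in replicate 1 and 5.14 in replicate 2 of unstimulated cells, 7.66 and 3.90 at 3 h, and 6.75 and 3.70 at 12 h. In IkL/L cells all 6 values lay between 5.72 and 6.54.

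Stimulation of the B cell receptor was followed by opposite movements within the proteasome. The genes of the constitutive 26S particle, the 14 of the 20S core and the 17 of the 19S cap, rose in part at 3 h and nearly all by 12 h. At 12 h these were 28 of 31 in IkL/L cells and 26 of 31 in WT cells. With arrays scaled by 8 housekeeping genes they were 13 and 11. The 3 immunoproteasome genes fell at 3 h in both genotypes. At 12 h Psmb9 and Psmb10 were still lower than in unstimulated cells in WT cells, though each call was lost when certain single arrays were left out. None of the 3 passed the threshold in IkL/L cells at 12 h, though Psmb10 did with the replicate as a block within genotype or with arrays scaled by 8 housekeeping genes. The difference between the genotypes in the 12 h response did not pass the threshold for any of the 3. The words rose and fell are used where limma's p, adjusted over all 18193 genes by the Benjamini-Hochberg method, was under 0.05.

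**Figure D1:**
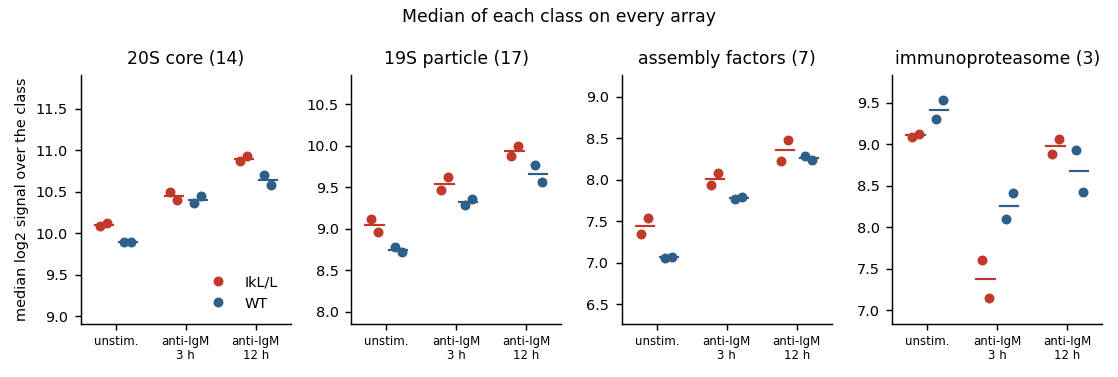
Median log2 signal per array of the 20S core (14 genes), the 19S particle (17), the assembly factors (7) and the immunoproteasome catalytic subunits (3), by condition, IkL/L and WT arrays side by side. The 20S core median was 10.50 and 10.40 in the IkL/L 3 h arrays and 10.36 and 10.45 in the WT 3 h arrays, above all unstimulated arrays, while the immunoproteasome median at 3 h lay below all unstimulated arrays.

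At 3 h of stimulation, 19 of the 47 genes rose and 3 fell in IkL/L cells, against 9.82% of all genes higher and 10.6% lower in that comparison. In WT cells 14 rose and 3 fell, against 9.15% of all genes higher and 10.2% lower. Since 45 of the 47 are over the floor, the share among genes with a mean over the floor is the closer background: 21.3% of these were higher and 21% lower in IkL/L cells, and 20.4% higher and 20.6% lower in WT cells. Among proteasome genes the shares that rose were 40.4% in IkL/L cells and 29.8% in WT cells. The median log2 difference was 0.41 in each genotype, against -0.03 over all genes in IkL/L cells and 0.02 in WT cells. The rises were thus modest in size and above the background share, while the 3 falls, 6.4% of members in each genotype, were fewer than the background. The 22 calls of IkL/L cells became 14 without IkL/L unstimulated replicate 1 and 12 without IkL/L 3 h replicate 2. Of the 14 rises in WT cells, 9 held when any single array was left out, as did 9 of the 19 in IkL/L cells and all 3 falls in each genotype.

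By 12 h, 39 of the 47 genes were higher and 0 lower than in unstimulated IkL/L cells, where 9.72% of all genes were higher and 7.87% lower. In WT cells 34 were higher and 2 lower, where 10.1% of all genes were higher and 8.66% lower. The background among genes with a mean over the floor was 20.4% higher and 16.1% lower in IkL/L cells and 21.9% higher and 17.6% lower in WT cells, so the members' shares that rose, 83.0% and 72.3%, were far above it. One of the 39 is Psma8, whose arrays are all under the floor. The median log2 difference was 0.86 in IkL/L cells and 0.80 in WT cells, against 0.02 and 0.05 over all genes. When any single array was left out, 27 of the 39 rises in IkL/L cells held, and 26 of the 34 rises and 0 of the 2 falls in WT cells. With each array scaled by the mean of 8 housekeeping genes, 16 members were higher and 1 lower in IkL/L cells and 14 higher and 3 lower in WT cells, a total of 17 in each. That scaling moved the median of all genes to -0.42 in IkL/L cells and -0.29 in WT cells, since some of the 8, such as Pgk1, themselves rose at 12 h. The median over the 31 constitutive 26S genes then stood at 0.47 in IkL/L cells and 0.48 in WT cells, still above that of all genes.

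Set directly against 3 h, the 12 h arrays had 22 members higher and 0 lower in IkL/L cells (9.12% of all genes higher, 6.42% lower) and 11 higher and 0 lower in WT cells (6.5% higher, 4.33% lower). The median log2 difference was 0.42 in IkL/L cells and 0.40 in WT cells. These counts rest on single arrays. In IkL/L cells the count was 8 or 13 when 3 h replicate 1 or 2 was left out, and 14 or 7 when 12 h replicate 1 or 2 was left out. In WT cells it was 4 without either 3 h replicate and 6 without 12 h replicate 1, whereas a fit with the replicate as a block within genotype gave 22. With housekeeping scaling, 4 were higher and 2 lower in IkL/L cells, 6 in all, and 3 higher and 0 lower in WT cells. The median difference of the members was then 0.02 in IkL/L cells and 0.13 in WT cells, against -0.35 and -0.26 over all genes.

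**Figure D2:**
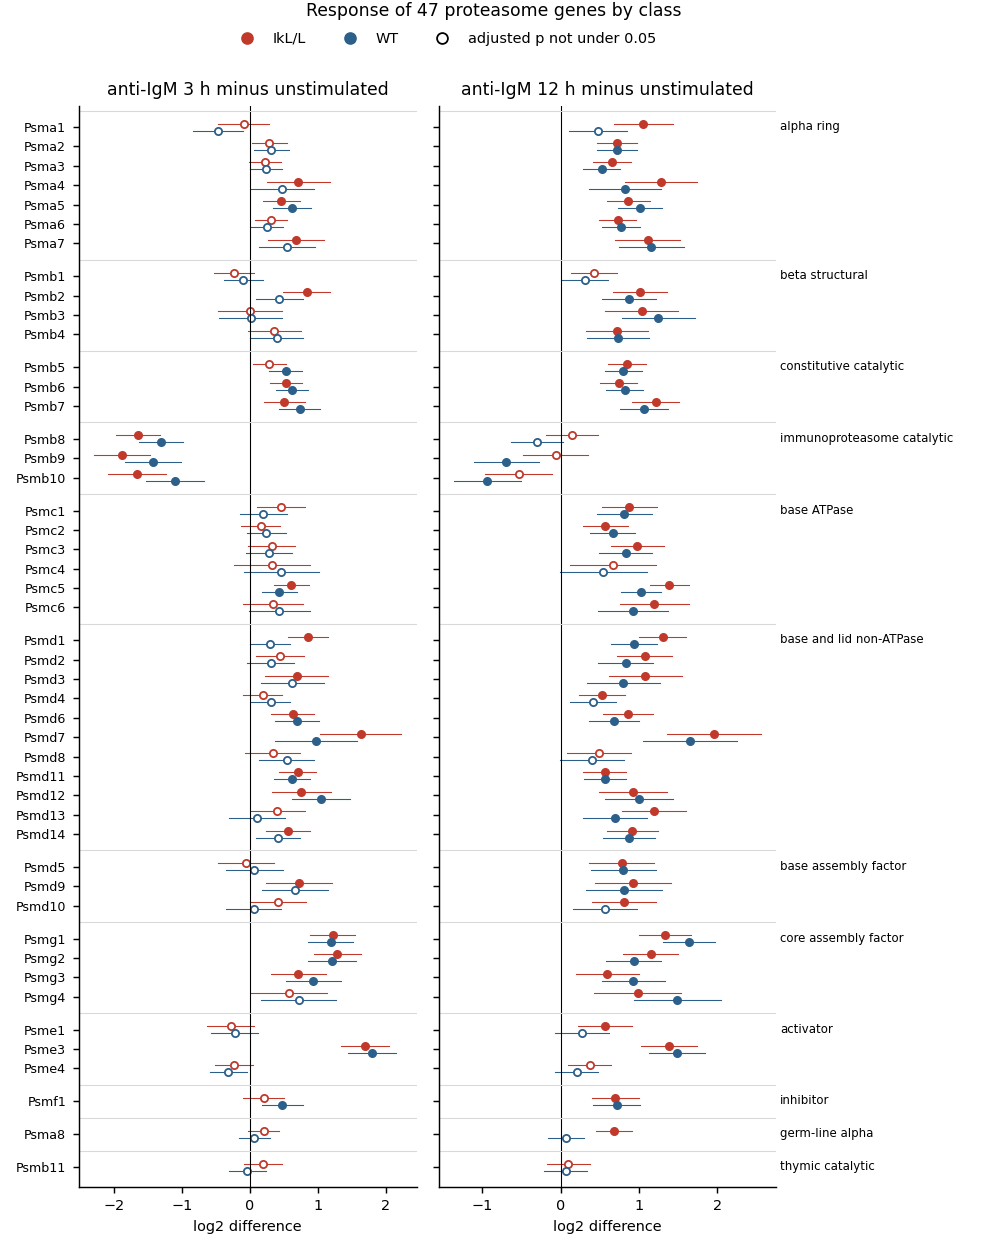
Log2 difference from unstimulated cells of each of the 47 genes, by role, at 3 h and 12 h in IkL/L and WT cells, with 95% intervals from the fit; filled points passed the adjusted threshold of 0.05. At 12 h all points of the 20S core and the 19S particle lie above 0, between 0.42 and 1.96 in IkL/L cells and between 0.31 and 1.65 in WT cells, while at 3 h the 3 immunoproteasome genes lie between -1.88 and -1.65 in IkL/L cells and between -1.42 and -1.10 in WT cells.

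The catalytic subunits show the opposite movements most directly, because each immunoproteasome subunit has a constitutive counterpart. The genes of 2 of the 3 immunoproteasome subunits, Psmb8 and Psmb9, lie in the MHC region of chromosome 17, with their starts 10865 bases apart. Psmb9 starts head to head with Tap1, a subunit of the transporter that carries peptides to MHC class I, with the starts 226 bases apart. Psmb10 lies on chromosome 8, Psmb5 on chromosome 14 and Psmb6 on chromosome 11. Their sequences upstream of the start are given to show the promoters of the pairs that moved apart, from RefSeq on build GRCm38.p6, each 5′ to 3′ on the strand named, ending at the base before the start. The 120 bases are chr17:34198075-34198194 (plus strand) for Psmb8, chr8:105938393-105938512 (minus) for Psmb10, chr14:54617996-54618115 (minus) for Psmb5 and chr11:70525237-70525356 (plus) for Psmb6. The last line is the whole stretch of 225 bases between the starts of Psmb9 (minus) and Tap1 (plus), chr17:34187331-34187555, read on the plus strand. Capitals mark matches on either strand to the antioxidant response core TGACNNNGC, the CCAAT box, the E-box CACGTG or the interferon-response core GAAANNGAA. The 120 bases of Psmb8 hold none of these 4.
Psmb8: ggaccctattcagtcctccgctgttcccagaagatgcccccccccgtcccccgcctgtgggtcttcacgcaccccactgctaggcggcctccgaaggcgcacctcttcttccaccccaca
Psmb10: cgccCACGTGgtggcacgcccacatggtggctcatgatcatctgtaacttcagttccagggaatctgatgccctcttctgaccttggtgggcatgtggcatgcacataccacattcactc
Psmb5: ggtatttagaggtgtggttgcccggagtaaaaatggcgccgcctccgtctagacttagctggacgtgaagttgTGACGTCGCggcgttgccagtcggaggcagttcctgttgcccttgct
Psmb6: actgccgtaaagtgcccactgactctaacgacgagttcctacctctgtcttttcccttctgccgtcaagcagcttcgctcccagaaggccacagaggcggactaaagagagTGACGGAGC
Psmb9 to Tap1: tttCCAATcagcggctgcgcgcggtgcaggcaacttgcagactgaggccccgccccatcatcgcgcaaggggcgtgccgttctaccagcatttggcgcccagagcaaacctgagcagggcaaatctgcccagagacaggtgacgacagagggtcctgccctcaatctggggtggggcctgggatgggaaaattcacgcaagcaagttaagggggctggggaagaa

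These motifs were counted over the 250 bases before the start on both strands, in 39 of the 47 genes (the other 8 had no entry) and in 27025 genes of the table. The core TGACNNNGC, read by the Nrf proteins with a small Maf partner, was present in 5 of 39 (12.8%), against 11.5% of all genes. The 5 were Psmb5, Psmb6, Psmc6, Psmd9 and Psmd12. CCAAT, read by NF-Y, was present in 14 of 39 (35.9%), against 37.5% of all genes. CACGTG, the E-box read by Myc, was present in 4 of 39 (10.3%), against 6.86%, namely Psma4, Psmb10, Psmd9 and Psme3. The interferon-response core GAAANNGAA was in 3 of 39 (7.69%), against 8.18% of all genes. None of the 3 immunoproteasome genes held it, which says only that these letters are not in this window. The members' shares were near those of all genes for 3 of the 4 motifs, and that of the E-box rests on 4 genes. No site is read from a match.

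Psmb8, the immunoproteasome counterpart of Psmb5, fell at 3 h and rose again between 3 h and 12 h. In IkL/L cells its log2 signal was 10.11 and 10.15 unstimulated, 8.58 and 8.37 at 3 h, and 10.34 and 10.21 at 12 h. The WT arrays had 10.16 and 10.11 unstimulated, 8.88 and 8.78 at 3 h, and 10.04 and 9.62 at 12 h. The 3 h arrays were the lowest in each genotype, and at 12 h both IkL/L arrays lay above and both WT arrays below all unstimulated arrays of their own genotype. At 3 h Psmb8 fell 3.14-fold in IkL/L cells (log2 -1.65, SE 0.15, adjusted p = 4.24e-05) and 2.48-fold in WT cells (log2 -1.31, SE 0.15, adjusted p = 0.000158). Between 3 h and 12 h it rose 3.47-fold in IkL/L cells (adjusted p = 6.47e-05) and 2.01-fold in WT cells (adjusted p = 0.00212). At 12 h against unstimulated cells the difference was 0.14 in IkL/L cells (95% interval -0.18 to 0.47, adjusted p = 0.662) and -0.30 in WT cells (-0.63 to 0.02, adjusted p = 0.217). The value in IkL/L cells changed sign with housekeeping scaling, to -0.30. The value in WT cells passed the threshold with that scaling (log2 -0.64, adjusted p = 0.00839) and without WT 12 h replicate 1 (log2 -0.51, adjusted p = 0.0441).

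Psmb9, the counterpart of Psmb6, fell most of the 3. In IkL/L cells it stood at 8.95 and 9.13 unstimulated, 7.32 and 6.99 at 3 h, and 8.88 and 9.07 at 12 h. WT cells stood at 9.30 and 9.44 unstimulated, 7.84 and 8.05 at 3 h, and 8.93 and 8.42 at 12 h. The 12 h arrays overlapped the unstimulated ones in IkL/L cells and were below them in WT cells. At 3 h the fall was 3.69-fold in IkL/L cells (log2 -1.88, SE 0.19, adjusted p = 7.9e-05) and 2.68-fold in WT cells (log2 -1.42, SE 0.19, adjusted p = 0.000386). At 12 h the difference from unstimulated cells was -0.06 in IkL/L cells (adjusted p = 0.904; -0.51 with housekeeping scaling, adjusted p = 0.058) and -0.70 in WT cells (adjusted p = 0.0242). The call in WT cells was lost without unstimulated replicate 1 (adjusted p = 0.0692), unstimulated replicate 2 (0.145) or 12 h replicate 2 (0.18). Its rise from 3 h was log2 1.82 in IkL/L cells (adjusted p = 0.00019) and 0.73 in WT cells (adjusted p = 0.0319), the second lost without either WT 3 h replicate or WT 12 h replicate 1, and with housekeeping scaling (0.45, adjusted p = 0.161).

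Psmb10, the counterpart of Psmb7, fell at 3 h as well. Its signal in IkL/L cells was 9.09 and 9.00 unstimulated, 7.61 and 7.14 at 3 h, and 8.64 and 8.37 at 12 h. In WT cells it was 9.17 and 9.54 unstimulated, 8.10 and 8.41 at 3 h, and 8.47 and 8.36 at 12 h. The 12 h arrays lay below the unstimulated ones in both genotypes, and in WT cells one of them lay within the 3 h range. The fall at 3 h was 3.17-fold in IkL/L cells (log2 -1.66, SE 0.19, adjusted p = 0.000187) and 2.14-fold in WT cells (log2 -1.10, SE 0.19, adjusted p = 0.00224). At 12 h the difference from unstimulated cells was -0.54 in IkL/L cells (adjusted p = 0.087, and 0.0236 with the replicate as a block within genotype; log2 -0.98 with housekeeping scaling, adjusted p = 0.00674) and -0.94 in WT cells (adjusted p = 0.006, and 0.0623 without WT unstimulated replicate 2). From 3 h to 12 h Psmb10 rose 2.18-fold in IkL/L cells (adjusted p = 0.00306), while in WT cells the difference was 0.16 (adjusted p = 0.75).

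The falls of Psmb8, Psmb9 and Psmb10 at 3 h passed the threshold in both genotypes under all 26 other settings tried. WT replicate 1, which stood apart in interferon genes, differed from WT replicate 2 by at most 0.51 in these 3 genes, against 2.76 to 3.76 for the interferon median. The largest gaps were at 12 h, where Psmb9 (0.51) and Psmb8 (0.42) were higher in replicate 1. Unstimulated and at 3 h, Psmb9 and Psmb10 were lower in replicate 1. A part of the interferon genes in these values was not tested. Without WT replicate 1 in all conditions, the falls in WT cells at 3 h were log2 -1.34 for Psmb8 (adjusted p = 0.00808), -1.39 for Psmb9 (adjusted p = 0.0129) and -1.13 for Psmb10 (adjusted p = 0.0428).

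The constitutive counterparts rose. Psmb5, which carries the chymotrypsin-like activity, had 10.03 and 10.14 unstimulated, 10.38 and 10.37 at 3 h, and 10.85 and 11.01 at 12 h in IkL/L cells. The WT arrays had 9.89 and 9.89, then 10.38 and 10.45, then 10.74 and 10.63. The groups did not overlap within a genotype. At 12 h Psmb5 was 1.80-fold higher in IkL/L cells (log2 0.85, SE 0.11, adjusted p = 0.000507) and 1.74-fold in WT cells (log2 0.80, SE 0.11, adjusted p = 0.000587). At 3 h the difference was 0.29 in IkL/L cells (adjusted p = 0.0983) and 0.53 in WT cells (adjusted p = 0.00577).

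Psmb6, which carries the caspase-like activity, had 10.15 and 10.10 unstimulated, 10.62 and 10.70 at 3 h, and 10.89 and 10.85 at 12 h in IkL/L cells, and 9.81 and 9.74, 10.34 and 10.45, and 10.66 and 10.52 in WT cells. It rose at 3 h by log2 0.53 in IkL/L cells (adjusted p = 0.00493) and 0.62 in WT cells (adjusted p = 0.00212). At 12 h the rise was 0.74 in IkL/L cells (adjusted p = 0.000991) and 0.81 in WT cells (adjusted p = 0.000491). Every stimulated array was above every unstimulated array of its genotype.

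Psmb7, with the trypsin-like activity, rose most of the 3 at 12 h. It had 8.64 and 8.52 unstimulated, 8.97 and 9.20 at 3 h, and 9.66 and 9.92 at 12 h in IkL/L cells, and 8.09 and 8.09, 8.82 and 8.83, and 9.27 and 9.04 in WT cells. By 12 h it was 2.31-fold higher in IkL/L cells (log2 1.21, SE 0.14, adjusted p = 0.000248) and 2.09-fold in WT cells (log2 1.06, SE 0.14, adjusted p = 0.000431). At 3 h it rose by 0.50 in IkL/L cells (adjusted p = 0.0239) and 0.74 in WT cells (adjusted p = 0.00323), and the call in IkL/L cells was lost without either unstimulated array or 3 h replicate 2.

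**Figure D3:**
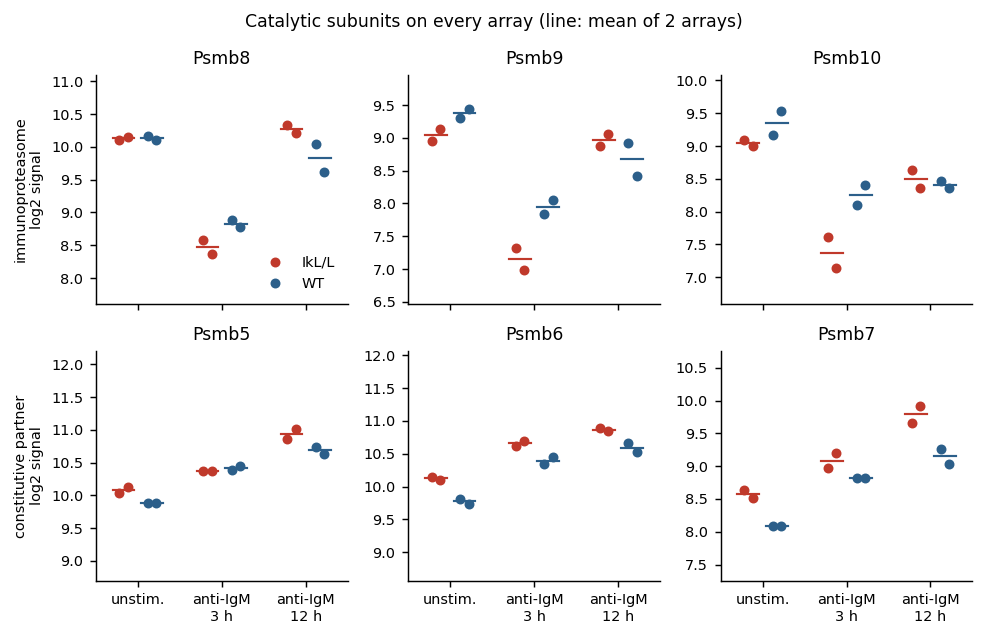
Log2 signal on each array of the immunoproteasome subunits Psmb8, Psmb9 and Psmb10 (top) and their constitutive counterparts Psmb5, Psmb6 and Psmb7 (bottom) by condition, with IkL/L arrays left of WT arrays and a line at the mean of 2. Every panel spans the same number of log2 units; the 3 h arrays are the lowest IkL/L arrays for all 3 top genes, while for the bottom genes both 3 h arrays lie above both unstimulated arrays of their genotype.

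In the structural part of the 20S core, rises were fewer at 3 h and near general at 12 h. All 7 alpha ring genes rose at 12 h in IkL/L cells (log2 0.65 to 1.28) and 6 of 7 in WT cells, the other being Psma1. At 3 h, 3 of 7 rose in IkL/L cells (Psma4, Psma5 and Psma7, each lost without either 3 h array) and 1 of 7 in WT cells (Psma5, log2 0.63, lost without WT unstimulated replicate 2). Of the structural beta genes Psmb1 to Psmb4, 3 of 4 rose at 12 h in each genotype. Psmb2 also rose at 3 h in IkL/L cells (log2 0.84, adjusted p = 0.0033). The exception was Psmb1, at log2 0.42 in IkL/L cells (adjusted p = 0.0511) and 0.31 in WT cells (adjusted p = 0.153).

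Psma4, an alpha ring subunit, had 8.84 and 9.12 unstimulated and 10.30 and 10.22 at 12 h in IkL/L cells, which do not overlap, and rose by log2 1.28 (SE 0.21, adjusted p = 0.002). In WT cells it had 9.11 and 8.74 unstimulated and 10.08 and 9.41 at 12 h (log2 0.82, adjusted p = 0.0191, lost without unstimulated replicate 2 or 12 h replicate 1). Psma7, also of the alpha ring, was 10.14 and 10.18 in IkL/L cells and 10.24 and 9.82 in WT cells at 12 h, where the unstimulated arrays had 9.25 and 8.85 in IkL/L cells and 8.94 and 8.80 in WT cells. Its rise at 12 h was log2 1.11 in IkL/L cells (adjusted p = 0.00238) and 1.16 in WT cells (adjusted p = 0.00161).

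Psmb3 and Psma1 moved late. Psmb3, a structural beta subunit, had 10.76 and 10.64 unstimulated, 10.96 and 10.44 at 3 h, and 11.58 and 11.88 at 12 h in IkL/L cells. The values in WT cells were 10.59 and 10.73 unstimulated, 10.86 and 10.48 at 3 h, and 11.71 and 12.09 at 12 h. The 3 h arrays bracketed the unstimulated ones in both genotypes, and the 12 h arrays were above both. The log2 difference at 3 h was 0.00 in IkL/L cells and 0.01 in WT cells. At 12 h against 3 h it was 1.03 in IkL/L cells (adjusted p = 0.00785, lost without IkL/L 3 h replicate 2 or 12 h replicate 2) and 1.23 in WT cells (adjusted p = 0.00445).

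Psma1, of the alpha ring, had 9.92 and 9.51 unstimulated, 9.75 and 9.49 at 3 h, and 10.79 and 10.75 at 12 h in IkL/L cells. The values in WT cells were 9.90 and 9.86, then 9.49 and 9.33, then 10.52 and 10.19. Against 3 h it was higher at 12 h by log2 1.15 in IkL/L cells (SE 0.17, adjusted p = 0.00131) and 0.94 in WT cells (SE 0.17, adjusted p = 0.00561). A second probe set of Psma1 went the other way at 12 h against unstimulated cells, by log2 -0.36 in IkL/L cells and -0.63 in WT cells, so the gene's direction depends on the probe set. Of the 20 members with more than 1 probe set over the floor, all probe sets pointed one way in 18 for IkL/L cells and 15 for WT cells at 12 h, and in 18 and 19 at 3 h. For 12 h against 3 h they did so in 14 for IkL/L cells and 11 for WT cells.

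The 19S cap followed the same course: 15 of its 17 genes rose at 12 h in IkL/L cells and 14 of 17 in WT cells, after 8 and 5 at 3 h. The genes not past the threshold at 12 h were Psmc4 (log2 0.67) and Psmd8 (0.49) in IkL/L cells, and Psmc4 (0.55), Psmd4 (0.41) and Psmd8 (0.40) in WT cells. Leaving out a single array ended the 12 h calls of Psmc2, Psmd4, Psmd11 and Psmd12 in IkL/L cells and of Psmc6, Psmd3, Psmd6 and Psmd13 in WT cells. All 17 differences were above 0 at 3 h and at 12 h in each genotype.

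Psmc5, a base ATPase, rose in steps. It had 8.71 and 8.53 unstimulated, 9.21 and 9.25 at 3 h, and 9.93 and 10.08 at 12 h in IkL/L cells. The WT arrays had 8.66 and 8.72, then 9.16 and 9.08, then 9.77 and 9.66. Each condition stood clear of the others in both genotypes. At 12 h it was 2.62-fold higher in IkL/L cells (log2 1.39, SE 0.11, adjusted p = 4.29e-05) and 2.04-fold in WT cells (log2 1.03, SE 0.11, adjusted p = 0.000183). The steps were less firm in WT cells. There the rise at 3 h (log2 0.43, adjusted p = 0.0215) was lost without any 1 of the 4 arrays compared, and the rise from 3 h to 12 h (0.59, adjusted p = 0.00856) was lost without WT 3 h replicate 2 (adjusted p = 0.0543).

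Psmd7, a lid subunit that partners the deubiquitinase Psmd14, had the largest rise of all members at 12 h in both genotypes. In WT cells Psmg1 came close to it, at log2 1.63. In IkL/L cells Psmd7 had 7.34 and 7.32 unstimulated, 9.08 and 8.84 at 3 h, and 9.32 and 9.26 at 12 h. WT cells had values of 7.30 and 6.80 unstimulated, 8.03 and 8.02 at 3 h, and 9.19 and 8.22 at 12 h. The IkL/L 12 h arrays were close together, while the WT 12 h arrays were nearly 1 log2 unit apart. At 12 h it rose 3.89-fold in IkL/L cells (log2 1.96, SE 0.27, adjusted p = 0.000776) and 3.14-fold in WT cells (log2 1.65, SE 0.27, adjusted p = 0.00171). At 3 h it rose 3.10-fold in IkL/L cells (log2 1.63, adjusted p = 0.00159) and 1.96-fold in WT cells (log2 0.97, adjusted p = 0.0281). The WT call at 3 h was lost without unstimulated replicate 2 or either 3 h array. A second probe set gave smaller values of the same sign, 0.96 at 3 h and 0.62 at 12 h in IkL/L cells and 0.69 and 0.33 in WT cells.

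Psmd1, the large scaffold subunit of the base, rose by 12 h by log2 1.30 in IkL/L cells (SE 0.13, adjusted p = 0.000146) and 0.93 in WT cells (SE 0.13, adjusted p = 0.000799). Its arrays had 9.12 and 9.31 unstimulated, 10.14 and 10.00 at 3 h, and 10.42 and 10.61 at 12 h in IkL/L cells, and 9.31 and 9.45, 9.56 and 9.78, and 10.27 and 10.35 in WT cells. At 3 h the difference was 0.86 in IkL/L cells (adjusted p = 0.00112) and 0.29 in WT cells (adjusted p = 0.192).

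Psmd12, a lid subunit, reached its level early. It had 8.72 and 8.94 unstimulated, 9.55 and 9.63 at 3 h, and 9.69 and 9.82 at 12 h in IkL/L cells, and 8.41 and 7.94, 9.28 and 9.16, and 9.44 and 8.92 in WT cells. The rise at 3 h was log2 0.76 in IkL/L cells (adjusted p = 0.0188, lost without unstimulated replicate 1 or either 3 h array) and 1.05 in WT cells (adjusted p = 0.00328). At 12 h against 3 h its difference was 0.17 in IkL/L cells (adjusted p = 0.686) and -0.04 in WT cells (adjusted p = 0.949). Psmd11 and Psmd6, also of the lid, likewise rose by 3 h (0.70 and 0.63 in IkL/L cells, 0.62 and 0.69 in WT cells). The calls of Psmd6 were lost without IkL/L unstimulated replicate 1 or 3 h replicate 2, and without WT 3 h replicate 1. Neither gene differed past the threshold between 12 h and 3 h in either genotype.

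Assembly factors rose with the subunits they assemble, and those of the core did so early. The 4 core chaperones Psmg1 to Psmg4 all rose by 12 h in both genotypes, and 3 of 4 at 3 h, the exception being Psmg4 (log2 0.58, adjusted p = 0.155 in IkL/L cells; 0.72, adjusted p = 0.076 in WT cells). Psmg1 had 7.35 and 7.63 unstimulated, 8.63 and 8.79 at 3 h, and 8.64 and 9.00 at 12 h in IkL/L cells. WT cells had values of 7.05 and 7.07 unstimulated, 8.33 and 8.18 at 3 h, and 8.67 and 8.72 at 12 h. All stimulated arrays were about 1 log2 unit or more above the unstimulated arrays of the same genotype. Its rise at 3 h was 2.33-fold in IkL/L cells (log2 1.22, SE 0.15, adjusted p = 0.000264) and 2.28-fold in WT cells (log2 1.19, SE 0.15, adjusted p = 0.000307). At 12 h it was 2.51-fold higher in IkL/L cells (log2 1.33) and 3.10-fold in WT cells (log2 1.63).

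Psmg2, which pairs with Psmg1, had 7.49 and 7.54 unstimulated, 8.77 and 8.84 at 3 h, and 8.40 and 8.92 at 12 h in IkL/L cells, and 7.36 and 7.36, 8.54 and 8.61, and 8.38 and 8.20 in WT cells. It was highest at 3 h in WT cells. The rise at 3 h was log2 1.29 in IkL/L cells (SE 0.16, adjusted p = 0.000264) and 1.21 in WT cells (SE 0.16, adjusted p = 0.000392). Psmg3 rose at 3 h by 0.71 in IkL/L cells (adjusted p = 0.0175, lost without IkL/L unstimulated replicate 1 or 3 h replicate 2) and 0.94 in WT cells (adjusted p = 0.00421). At 12 h the rise of Psmg3 in IkL/L cells (0.59, adjusted p = 0.0476) was lost in 9 of the 12 cases that left out 1 array. Psmg4 rose at 12 h by 0.98 in IkL/L cells (adjusted p = 0.0208, lost without unstimulated replicate 1 or 12 h replicate 2) and 1.49 in WT cells (adjusted p = 0.002).

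The base assembly factors differed in timing. Psmd5, Psmd9 and Psmd10 all rose by 12 h in IkL/L cells (log2 0.78, 0.93 and 0.81), each lost without unstimulated replicate 1 or 12 h replicate 2. In WT cells Psmd5 and Psmd9 rose by 0.80 each, the first lost without unstimulated replicate 1 or 12 h replicate 2 and the second without either unstimulated array or 12 h replicate 1. Psmd5, which binds the ATPase Psmc2, had 7.87 and 8.25 unstimulated, 7.94 and 8.07 at 3 h, and 8.57 and 9.11 at 12 h in IkL/L cells, and 7.63 and 7.79, 7.76 and 7.78, and 8.42 and 8.59 in WT cells. Its 3 h arrays lay among or next to the unstimulated ones. Psmd9 had 6.05 and 6.35 unstimulated, 6.67 and 7.16 at 3 h, and 6.95 and 7.29 at 12 h in IkL/L cells, and 5.89 and 5.98, 6.75 and 6.45, and 6.97 and 6.51 in WT cells. At 3 h it rose by log2 0.72 in IkL/L cells (adjusted p = 0.0404, lost in 5 of the 12 cases that left out 1 array), and it was at 0.67 in WT cells (adjusted p = 0.0601). At 12 h against 3 h its difference was 0.20 in IkL/L cells and 0.14 in WT cells. Psmd10 was at 0.42 in IkL/L cells (adjusted p = 0.162) and 0.05 in WT cells at 3 h, neither past the threshold.

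The activators, caps that open the core without ATP, went separate ways. Psme3 (REG gamma or PA28 gamma), a nuclear activator, had the largest rise of all members at 3 h in both genotypes. Its signal in IkL/L cells was 7.61 and 8.04 unstimulated, 9.43 and 9.62 at 3 h, and 9.18 and 9.22 at 12 h. The values in WT cells were 7.58 and 7.35 unstimulated, 9.38 and 9.16 at 3 h, and 8.97 and 8.93 at 12 h. All stimulated arrays were over 1 log2 unit above the unstimulated ones, with the 3 h arrays the highest in each genotype. The rise at 3 h was 3.26-fold in IkL/L cells (log2 1.70, SE 0.16, adjusted p = 5.73e-05) and 3.49-fold in WT cells (log2 1.81, SE 0.16, adjusted p = 4.87e-05). At 12 h it was 2.61-fold in IkL/L cells (log2 1.38, adjusted p = 0.000285) and 2.80-fold in WT cells (log2 1.49, adjusted p = 0.000149). A second probe set rose by 2.04 and 1.12 in IkL/L cells and 1.46 and 1.40 in WT cells at 3 h and 12 h.

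Psme1 (PA28 alpha), which is induced by interferon gamma and works with the immunoproteasome, did not share that rise. It had 9.72 and 9.87 unstimulated, 9.52 and 9.52 at 3 h, and 10.29 and 10.44 at 12 h in IkL/L cells, and 9.83 and 10.30, 9.75 and 9.93, and 10.33 and 10.35 in WT cells. The 3 h arrays were below the unstimulated ones in IkL/L cells and overlapped them in WT cells. At 3 h the log2 difference was -0.28 in IkL/L cells (adjusted p = 0.287) and -0.23 in WT cells (adjusted p = 0.442). At 12 h it was 0.57 in IkL/L cells (adjusted p = 0.0299, lost without any 1 of the 4 arrays compared) and 0.27 in WT cells (adjusted p = 0.308).

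Psme4 (PA200) stood at log2 -0.23 in IkL/L cells and -0.32 in WT cells at 3 h, neither past the threshold. Psmf1 (PI31), known as an inhibitor of the core in vitro, rose at 12 h by 0.70 in IkL/L cells (adjusted p = 0.00504) and 0.72 in WT cells (adjusted p = 0.00387). Its probe sets disagree for 12 h against 3 h in IkL/L cells, where the brightest gave 0.49 (adjusted p = 0.0326) and another was called lower at -0.74. The germ-line subunit Psma8 lay between 2.79 and 3.66 and the thymic subunit Psmb11 between 2.83 and 3.15 on the 12 arrays, all under the floor.

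Companion genes outside the Psm symbols are given from lists written from general knowledge. Of 9 measured proteasome cofactors, 5 rose at 12 h and 4 at 3 h in each genotype, and 0 fell. Among genes with a mean over the floor at 12 h, 20.4% were higher and 16.1% lower in IkL/L cells. In WT cells these shares were 21.9% and 17.6%. At 3 h they were 21.3% and 21% in IkL/L cells and 20.4% and 20.6% in WT cells. Pomp, the chaperone that matures the core and its catalytic subunits, had 8.13 and 8.02 unstimulated, 8.98 and 8.99 at 3 h, and 9.85 and 9.70 at 12 h in IkL/L cells, and 8.22 and 8.30, 8.77 and 8.96, and 9.45 and 9.05 in WT cells. The conditions did not overlap within a genotype. At 12 h its rise was log2 1.70 in IkL/L cells (adjusted p = 4.95e-05) and 0.99 in WT cells (adjusted p = 0.000918). The deubiquitinases that sit on the cap rose too: Usp14 by 1.62 in IkL/L cells and 1.07 in WT cells at 12 h, and Uchl5 by 0.91 and 1.02. Of 8 measured genes of ubiquitin supply and shuttling, 5 rose at 12 h and 0 fell in each genotype, against the same background shares at 12 h. The largest rise was that of the shuttle Rad23b (log2 1.16 in IkL/L cells and 0.80 in WT cells).

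Of 11 MHC class I processing genes, all over the floor, 1 rose and 4 fell at 3 h in IkL/L cells, and 1 rose and 2 fell in WT cells. Among genes with a mean over the floor, 21.3% were higher and 21% lower in IkL/L cells and 20.4% higher and 20.6% lower in WT cells, so nothing is read about the list from these counts. Tap1, the neighbour of Psmb9, had 9.02 and 9.70 unstimulated, 8.01 and 7.99 at 3 h, and 8.52 and 8.94 at 12 h in IkL/L cells, and 9.40 and 9.20, 8.51 and 8.25, and 8.69 and 8.15 in WT cells. It fell at 3 h by 1.36 on the log2 scale in IkL/L cells (adjusted p = 0.0029) and by 0.92 in WT cells (adjusted p = 0.0247). Tap2, its partner, fell by 0.81 in IkL/L cells and 0.78 in WT cells. Erap1, which trims peptides in the endoplasmic reticulum, rose by 1.40 in IkL/L cells (adjusted p = 0.000245) and 1.13 in WT cells (adjusted p = 0.00091). At 12 h, 4 of the 11 rose and 0 fell in IkL/L cells, and 2 rose and 3 fell in WT cells, where the background over the floor was 20.4% higher and 16.1% lower in IkL/L cells and 21.9% higher and 17.6% lower in WT cells. Nlrc5, an activator of MHC class I genes, did not pass the threshold at either time: log2 0.07 and 1.11 in IkL/L cells and 0.48 and 0.77 in WT cells at 3 h and 12 h.

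Irf1, a transcription factor known to act on Psmb8, Psmb9 and Tap1 after interferon gamma, had 8.92 and 9.30 unstimulated, 7.88 and 7.82 at 3 h, and 8.03 and 7.45 at 12 h in IkL/L cells. The WT arrays had 9.54 and 9.39, then 9.04 and 9.15, then 8.18 and 8.67. All stimulated arrays were below the unstimulated arrays of their genotype. At 3 h the difference was -1.26 in IkL/L cells (adjusted p = 0.00214) and -0.37 in WT cells (adjusted p = 0.344). At 12 h it was -1.37 in IkL/L cells (adjusted p = 0.00174) and -1.04 in WT cells (adjusted p = 0.0069). Over the 10 measured interferon genes, 0 rose and 1 fell at 3 h in each genotype (Irf1 in IkL/L cells, Stat2 in WT cells). Among genes with a mean over the floor, 21.3% were higher and 21% lower in IkL/L cells, and 20.4% higher and 20.6% lower in WT cells. The median of these 10 genes was 7.89 and 5.14 in the unstimulated WT arrays. The 6 groups share 1 estimate of spread in the fit, so such gaps limit the calls in both genotypes. Nothing is read about the list from these counts. The part of the interferon genes in the proteasome values was not tested.

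The B cell markers moved with stimulation as well: at 3 h, 3 of 5 fell and 1 rose in each genotype, with Cd79a at log2 -2.31 in IkL/L cells and -1.86 in WT cells. Among genes with a mean over the floor, 21.3% were higher and 21% lower in IkL/L cells, and 20.4% higher and 20.6% lower in WT cells. The median of the 5 markers was 8.13 and 7.89 in IkL/L cells at 3 h, against 9.96 and 9.86 unstimulated. In WT cells it was 8.81 and 8.89, against 10.47 and 10.58. A part of this in the fall of the immunoproteasome genes was not tested.

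Regulators of proteasome genes did not move as a group. Myc rose at 3 h by log2 2.15 in IkL/L cells (adjusted p = 0.000206) and 2.79 in WT cells (adjusted p = 5.4e-05), from a list of 12 measured genes of which 4 rose and 1 fell in each genotype. Among genes with a mean over the floor, 21.3% were higher and 21% lower in IkL/L cells, and 20.4% higher and 20.6% lower in WT cells. The small Maf proteins, which pair with the Nrf factors, made up the other rises at 3 h: Maff by 2.38 in IkL/L cells and 3.33 in WT cells, Mafg by 1.79 and 1.65, and Mafk by 1.41 and 1.16. The unstimulated IkL/L arrays lay apart for Maff (5.42 and 7.47), Mafg (6.13 and 7.29) and Myc (8.82 and 9.66), and less so for Mafk (6.57 and 6.88). No difference between the genotypes is read from the sizes of these rises. Nfe2l1 (Nrf1), which induces proteasome genes when the proteasome is inhibited, was at 0.74 in IkL/L cells (adjusted p = 0.126) and 0.42 in WT cells (adjusted p = 0.467). Nfe2l2 (Nrf2) was at 0.20 in IkL/L cells and 0.16 in WT cells at 3 h, and fell by 0.77 in WT cells at 12 h (adjusted p = 0.00167). Ngly1, which removes sugars from Nrf1 and so permits its activity, fell by 1.30 in IkL/L cells and 1.31 in WT cells at 3 h.

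**Figure D4:**
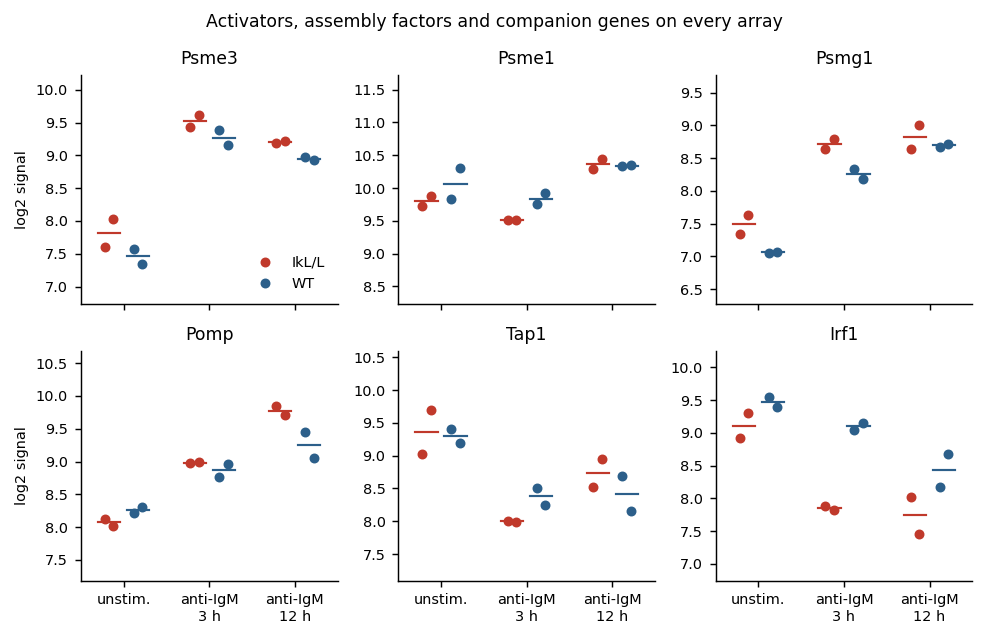
Log2 signal on each array of the activators Psme3 and Psme1, the core chaperones Psmg1 and Pomp, the peptide transporter subunit Tap1 and the transcription factor Irf1, by condition, with IkL/L arrays left of WT arrays. Psme3, Psmg1 and Pomp are above the unstimulated arrays in all stimulated arrays of their genotype, and Tap1 is below them at 3 h.

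Few members passed the threshold between the genotypes in any one condition. Unstimulated, 0 of the 47 genes differed between IkL/L and WT cells in limma (1.13% of all genes did), and 7 had an unadjusted p under 0.05, all of them higher in IkL/L cells, where 11.2% of genes with a mean over the floor were higher at that p. At 3 h 0 members passed (1.7% of all genes), with 7 higher and 3 lower at an unadjusted p under 0.05 (10.5% and 9.99% of genes over the floor). At 12 h 1 passed (0.616% of all genes): Psma8, at 3.66 and 3.60 in IkL/L cells and 2.97 and 2.89 in WT cells, all under the floor, so that no level is read from it. Of the members, 17 had an unadjusted p under 0.05 at 12 h, all higher in IkL/L cells, against 9.46% of genes over the floor that were higher. With the replicate as a block within genotype, the counts were 1, 3 and 3 in unstimulated cells, at 3 h and at 12 h.

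On average over the 3 conditions, 6 members were higher in IkL/L than in WT cells and 0 lower, or 12.8% of members, against 3.41% of all genes higher and 6.09% of genes with a mean over the floor. They were Psmd12 (log2 0.53, adjusted p = 0.022), Psmb7 (0.46, SE 0.08, adjusted p = 0.00785), Psma8 (0.34, under the floor), Psmd6 (0.34), Psmg1 (0.34, adjusted p = 0.0489) and Psmb6 (0.30, adjusted p = 0.0195). Psmb7 held when any single array was left out. In the order above, the calls of Psmd12, Psmd6, Psmg1 and Psmb6 were lost in 5, 10, 10 and 4 of the 12 cases. The count moved to 17 with the replicate as a block within genotype, to 3 with housekeeping scaling, and to between 2 and 10 when 1 array was left out. It was 2 without WT unstimulated replicate 2, IkL/L 3 h replicate 2 or IkL/L 12 h replicate 2, 3 without WT 3 h replicate 2, WT 12 h replicate 2 or IkL/L unstimulated replicate 2, and 10 without WT 12 h replicate 1.

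The size of this difference was small and mostly in 1 direction for the 26S subunits. The median over the 31 genes was 0.18 in unstimulated cells, 0.20 at 3 h and 0.28 at 12 h, each IkL/L minus WT. Of the 31 differences, 26 were above 0 in unstimulated cells, 28 at 3 h, 30 at 12 h and 30 on average. Among all 18193 genes, 10005, 8307, 9029 and 8789 were above 0 in the same order. The 31 genes were read from the same 12 arrays, so they are not replicates of the genotype. Over all genes tested the median was 0.02 in unstimulated cells, -0.02 at 3 h and -0.0016 at 12 h. With housekeeping scaling the medians of the 31 genes were 0.18, 0.22 and 0.18, and those of all genes 0.03, -0.0014 and -0.10. Among the 31, Psmb3 was the one below 0 on average (log2 -0.04, adjusted p = 0.928). The members with no call are not shown to be alike in the genotypes.

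The immunoproteasome genes went the other way at 3 h, and in part already in unstimulated cells. Unstimulated, 0 of the 3 differences were above 0 (median -0.31) and 0 passed the threshold. The unstimulated means in IkL/L and WT cells were 9.04 and 9.37 for Psmb9, 9.04 and 9.35 for Psmb10, and 10.13 and 10.14 for Psmb8. Psmb10 was lower in IkL/L cells at 3 h by 0.88 on the log2 scale (95% interval -1.30 to -0.45, adjusted p = 0.0547), Psmb9 by 0.79 (-1.21 to -0.38, adjusted p = 0.0706) and Psmb8 by 0.35 (-0.68 to -0.02, adjusted p = 0.352). Neither IkL/L array overlapped the WT arrays for any of the 3, although 25% of all genes were likewise lower without overlap. Other genes were lower in IkL/L cells in the same comparison: Irf1 by 1.25 (adjusted p = 0.024) and 1 of the 11 MHC class I processing genes, Tapbp, which links the peptide transporter to MHC class I, by 0.82 (adjusted p = 0.0362). Of the 5 B cell markers, 4 were lower without overlap and 0 passed the threshold. Their part in these values was not tested. With the replicate as a block within genotype, Psmb10 (adjusted p = 0.00911) and Psmb9 (adjusted p = 0.0442) passed the threshold. At 12 h the differences were 0.44 for Psmb8 (adjusted p = 0.324), 0.30 for Psmb9 and 0.09 for Psmb10, the last -0.01 with housekeeping scaling.

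The difference between the genotypes' responses was tested directly. For 0 of the 47 genes did the response at 3 h or at 12 h differ between IkL/L and WT cells in limma (0.0385% and 0.022% of all genes), and 1 and 4 had an unadjusted p under 0.05, all higher in IkL/L cells, against 3.2% and 4.71% of genes over the floor that were higher. For the 12 h response the difference was 0.63 for Psmb9 (95% interval 0.05 to 1.22, adjusted p = 0.771), 0.45 for Psmb8 (-0.02 to 0.91, adjusted p = 0.829) and 0.40 for Psmb10 (-0.20 to 1.00, adjusted p = 0.926). For the 3 h response it was -0.46 for Psmb9 (-1.04 to 0.13), -0.34 for Psmb8 (-0.81 to 0.12) and -0.57 for Psmb10 (-1.17 to 0.04). These intervals reach from about no difference to about 1 log2 unit.

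**Figure D5:**
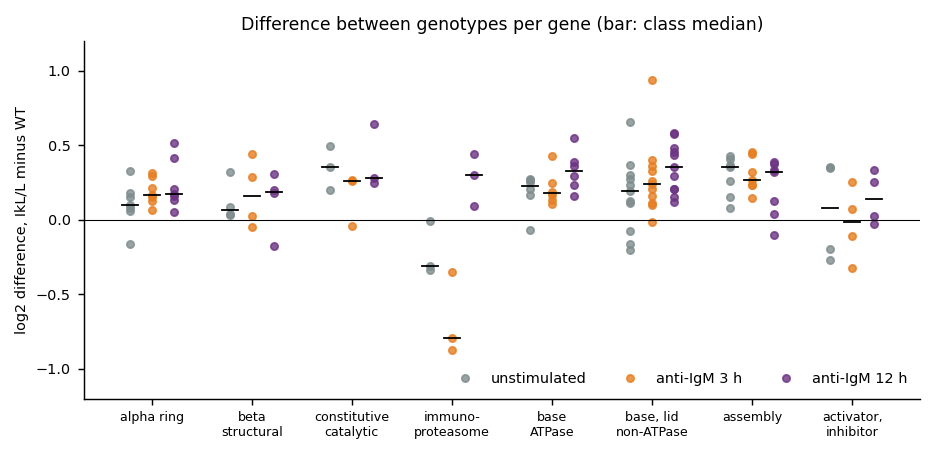
Log2 difference, IkL/L minus WT, of each of the 45 genes over the floor, by role, in unstimulated cells, at 3 h and at 12 h, with a bar at the median of the class. Most 26S subunits lie above 0 in each condition (medians 0.18, 0.20 and 0.28, or 0.18, 0.22 and 0.18 with housekeeping scaling). Psmb8, Psmb9 and Psmb10 lie below 0 in unstimulated cells (median -0.31) and at 3 h, and above 0 at 12 h (Psmb10 at -0.01 at 12 h with housekeeping scaling).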

How the data were processed

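Expression was measured on 12 Affymetrix mouse arrays of total RNA (100 ng, 2 cycles of labelling, per the labels' protocols). The authors deposited log2 signals, made with RMA (no version given) per the submitters' processing notes. Of 45037 probe sets, 34945 carry 1 symbol, 932 several and 9160 are unlisted in the annotation used. For each of 18193 genes the single-symbol probe set brightest on average was used.

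Group means were fitted over all 12 arrays with limma 3.58.1 in R 4.3.3 (lmFit and eBayes, 6 residual and 3.95 prior degrees of freedom), with 12 comparisons and Benjamini-Hochberg adjustment over all genes. The fit was tested on simulated data. The floor of 4.21 was set after the values were seen. The values used carry no background call, and the small number of arrays limits precision.

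Same-numbered arrays deviated together within a genotype over 6064 genes, with r from 0.546 to 0.619 in WT and 0.354 to 0.490 in IkL/L. Across genotypes r was 0.026 to 0.310. Over the members among these genes, r ran from -0.047 to 0.637 in WT, 0.365 to 0.435 in IkL/L and -0.045 to 0.444 across genotypes. The main fit held no replicate term, so its calls ignore any such pairing. A replicate block, within genotype or shared, was an alternative fit.

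The members and all lists were chosen with earlier results of these data known. Genes are named by rule: the catalytic pairs, Psme1, up to 6 largest rises and falls among members past the threshold in a comparison, and up to 3 members of each other list. The genes Psma5, Psmc4, Psmd4, Psmd6, Psmd8, Psmd9, Psmd10, Psmd11, Psme4 and Psmf1, and the markers of other cell types, were added after their values were seen. Promoters come from RefSeq on GRCm38.p6. Listed genes without a single-symbol probe set were not analysed here. Alternatives were the replicate block, other summaries of probe sets, array weights, an intensity trend, removal of dim genes, fits of the compared arrays alone, scaling by medians or housekeeping genes, and leaving out arrays.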

Additional observations from a re-analysis of the deposited data

Results flagged for a closer look

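At 12 h the arrays of Psmb8 lay on opposite sides of the unstimulated ones in the 2 genotypes. Both IkL/L arrays (10.34 and 10.21) lay above the unstimulated IkL/L arrays (10.11 and 10.15), and both WT arrays (10.04 and 9.62) lay below the unstimulated WT arrays (10.16 and 10.11). The difference between the responses, IkL/L minus WT, was 0.45 on the log2 scale (adjusted p = 0.829 in limma), so it did not pass the threshold. Neither genotype's own difference passed it either (log2 0.14 in IkL/L cells, adjusted p = 0.662; -0.30 in WT cells, adjusted p = 0.217). With housekeeping scaling both were below 0 (-0.30 in IkL/L cells, adjusted p = 0.0958, and -0.64 in WT cells, adjusted p = 0.00839), and the difference between the responses was 0.34 (adjusted p = 0.987).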

How the results depend on the processing

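Each count below is the number of the 47 proteasome genes past the threshold. Of 312 counts under other settings, 254 stayed within 1.5 times the value reported. Scaling to 8 housekeeping genes gave 17 at 12 h against unstimulated cells in IkL/L cells and 17 in WT cells, 6 and 3 at 12 h against 3 h, 0 between the genotypes at 12 h and 3 on average. Fitting only the arrays compared gave 4 at 12 h against 3 h in WT cells and 0 between the genotypes at 12 h. Between the genotypes at 3 h, removing the dimmest genes gave 1 and an intensity trend gave 1.

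With the replicate block within genotype, the counts were 22 at 12 h against 3 h in WT cells, 1 between the genotypes unstimulated, 3 at 3 h, 3 at 12 h and 17 on average. A replicate block shared by the genotypes gave 18, 2 at 3 h and 11 on average. No other count of members moved by over 1.5 times under the block. Leaving out arrays gave 8 to 23 at 3 h, 15 to 39 at 12 h and 3 to 22 at 12 h against 3 h in IkL/L cells, and 8 to 18, 18 to 37 and 1 to 12 in WT cells. Between the genotypes it gave 0 unstimulated, 0 to 2 at 3 h, 0 to 1 at 12 h, 0 to 10 on average, and 0 for the difference in either response. In IkL/L cells, the counts at 3 h, at 12 h and at 12 h against 3 h were 8, 19 and 8 without replicate 1 in all conditions and 9, 15 and 3 without replicate 2, and the last was 7 without 12 h replicate 2. In WT cells they were 9, 18 and 1 without replicate 1 and 8, 22 and 2 without replicate 2. Such groups hold 1 array, whose spread is taken from the other groups.

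Of 5408 results of single members, 4765 stayed on their side of the threshold, 622 lost the call and 20 gained it. In 1 result with a call the sign changed: with the mean of all its probe sets, Psmf1 at 12 h against 3 h in IkL/L cells stood at -0.31 (adjusted p = 0.343). Results with no call under either setting were counted as staying even where the sign changed. Psmb8 at 12 h in IkL/L cells with housekeeping scaling is such a case. The cause of these shifts was not tested, other than fewer arrays.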
